A study of Mus musculus with 3 samples.

Results

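Complement is a cascade of plasma and tissue proteins, and 8 of its genes were followed here in cells cultured on plates of different stiffness. They encode the proteases C1r and C1s (C1ra, C1s1), the convertase components C4, C2, C3 and factor B (C4b, C2, C3, Cfb), and the inhibitors C1 inhibitor and CD59 (Serping1, Cd59a). The genes were chosen by name, with earlier results of these data known, and all 8 were found among the 56833 genes of the deposited table. The study measured RNA by bulk sequencing of cells from the ankle synovium of Efhd1CreER; Ai9 mice, in which a Cre recombinase expressed from Efhd1 and made active by tamoxifen switches on the red reporter tdTomato. The reporter marks cells in which Efhd1 was active at the time of induction and their progeny, and how many mice were pooled per plate is not given in the sources used here. Sorted tdTomato-positive cells, called telocytes by the labels, were grown for 24 h on collagen-coated plates that were soft (0.2 kPa), intermediate (8 kPa) or stiff (64 kPa). All 3 groups share the genotype, the sort and the collagen coat, the age of the mice is not given in the sources used here, and each stiffness has 1 library. No difference below therefore has a replicate check, no p-value is given, and a difference between cultures cannot be told apart from a difference between stiffness levels.

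In the classical pathway, C1q binds a target, C1r activates C1s, and C1s cleaves C4 and C2 to form a C3 convertase. Factor B takes the place of C2 in the alternative pathway, which amplifies C3 cleavage on surfaces. C1 inhibitor, a serpin, inactivates C1r and C1s, and CD59 blocks assembly of the membrane attack complex at the end of the cascade. The liver makes most plasma complement, while fibroblasts and macrophages of the synovium are known as local sources.

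Depth was similar, at 25487064 reads for the soft, 28081600 for the intermediate and 26474862 for the stiff plate. Values are normalized counts, which are gene counts divided by a scale factor per library, and 1 read was worth between 0.943 and 1.03 of them. Fibroblast genes were abundant, with 10 of 10 markers present in every library and a sum from 250958 to 351509 normalized counts. Of the telocyte markers, Cd34 was at 234.8, 242.3 and 317.9 normalized counts from soft to stiff and Pdgfra at 5884, 6298 and 5118, whereas Efhd1 had 10, 5 and 3 reads. All 12 macrophage markers were also present in every library, with sums of 30641, 38218 and 67145 normalized counts from soft to stiff. Endothelial markers summed to at most 71.8 normalized counts, with Cldn5 at 0 in all libraries, Cdh5 at 0 in the stiff library and Kdr at 21, 27 and 45 reads from soft to stiff. Mural markers summed to 2367, 3277 and 3138 normalized counts in the same order. Cspg4 alone was at 1642, 2496 and 2376 and Notch3 at 529.0, 600.5 and 511.7. Mcam was at 89.2, 115.0 and 163.1 and Rgs5 at 89.2, 57.5 and 84.1, whereas Abcc9 had 13, 8 and 2 reads and Kcnj8 4, 0 and 1. Of the mast cell and basophil markers, Mcpt8 was at 1134, 759.8 and 742.5 normalized counts, and Cpa3, Ms4a2 and Fcer1a had no read. Lymphocyte markers had at most 1 read and hepatocyte markers at most 2 reads in any library. Which cells of these cultures made a complement transcript cannot be read from bulk RNA, and fewer cells of a type cannot be told apart from less RNA per cell.

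C3 was the gene of the 8 that differed most between plates. C3, whose protein is the central component on which all activation routes meet, spans chr17:57510964-57535155 of GRCm39, minus strand, and its canonical transcript has 41 exons. C1s1, which had the lowest ratio of stiff to soft, spans chr6:124507297-124559389, also on the minus strand, and its canonical transcript has 12 exons. The bases before a RefSeq start of each are shown because these genes mark the ends of the range of the 8. They come from RefSeq's GRCm38.p6 promoter table, were found once each on the same chromosome of GRCm39, and stop before the next annotated exon. The C1s1 window lies inside the span of that gene in GENCODE, whose outermost start is farther upstream. Capitals mark matches to the motifs named below.

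C3, chr17:57535156-57535386 (GRCm39, minus strand): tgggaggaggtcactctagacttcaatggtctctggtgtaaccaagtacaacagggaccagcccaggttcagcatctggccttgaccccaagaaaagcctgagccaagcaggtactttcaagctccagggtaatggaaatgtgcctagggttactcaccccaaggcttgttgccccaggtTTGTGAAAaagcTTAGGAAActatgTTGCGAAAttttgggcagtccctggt

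C1s1, chr6:124519319-124519568 (GRCm39, minus strand): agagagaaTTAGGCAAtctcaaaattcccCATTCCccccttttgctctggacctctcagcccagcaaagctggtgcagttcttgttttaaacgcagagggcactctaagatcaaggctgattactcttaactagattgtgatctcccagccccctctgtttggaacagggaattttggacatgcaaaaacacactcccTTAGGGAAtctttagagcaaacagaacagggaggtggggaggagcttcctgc

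Of the 8 genes, 4 had an entry in that table (C3, C1ra, C1s1 and Cd59a), and C4b, C2, Cfb and Serping1 did not. A search of both strands covered 7 motifs: C/EBP (TTNNGNAA), GAS (TTCNNNGAA), ISRE (TTTC, 2 free bases, TTTC), AP-1 (TGANTCA), TEAD (GGAATG), and the NF-kappaB and CArG consensus motifs. The C3 window of 231 bases held 3 C/EBP matches (TTGTGAAA, TTAGGAAA and TTGCGAAA) and no other match. The C1s1 window of 250 bases held 2 C/EBP matches (TTAGGCAA and TTAGGGAA) and 1 TEAD match on the opposite strand, and no matches overlapped. The Cd59a window held 1 ISRE match on the opposite strand (GAAAGGGAAA), and the C1ra window, which is only 34 bases long, held no match. Among 32851 RefSeq promoters, 35.3% had at least 1 C/EBP match in the first 231 bases, 9.96% at least 2 and 2.28% at least 3. A TEAD match was in 12.6% of them over 250 bases. The remaining shares over 250 bases were 7.02% for GAS, 2.98% for ISRE, 6.75% for AP-1, 3.90% for NF-kappaB and 1.47% for CArG. These are matches of letters and not binding sites.

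The proteases that start the classical pathway were lowest on the stiff plate, by less than 0.5 on the log2 scale. C1ra, the gene of C1r, stood at 1688 on the soft, 1712 on the intermediate and 1576 on the stiff plate in normalized counts. The stiff value was the lowest, and its log2 ratio to soft was -0.10 (95% counting interval -0.20 to 0.002) and to intermediate -0.12 (interval -0.22 to -0.02). C1s1, the gene of C1s, stood at 5048 on the soft, 5160.4 on the intermediate and 4318 on the stiff plate in normalized counts. The soft and intermediate libraries were alike within counting error, at a log2 ratio of 0.03 (interval -0.02 to 0.09), and the stiff library was lower than both. Its log2 ratio was -0.23 to soft (interval -0.28 to -0.17) and -0.26 to intermediate (interval -0.32 to -0.20). Intervals here and below are 95%, exact (Clopper-Pearson), and come from how the reads of a gene split between 2 libraries. They hold counting error and no variation between cultures, and reads copied by PCR are not separate molecules. Log2 ratios were computed after adding 1 to each normalized count.

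C1ra spans chr6:124489364-124500402 on the plus strand, and 6.89 kb separate it from C1s1. The close copies of both were near the detection limit, which is 3 reads. C1rb had 3, 3 and 1 reads, and C1s2 had 7, 7 and 1 reads in the soft, intermediate and stiff library. Of the stretches of 50 bases in the canonical C1ra transcript, 48.0% occur in C1rb transcripts, and 24.5% of those of C1s1 occur in C1s2. How reads that fit both copies were counted is not given in the sources used here, so the counts of the copies are uncertain.

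Of the components cleaved by C1s, C4b was lowest on the soft plate and C2 was too sparse to show an order. C4b, whose protein supplies the surface-bound part of the classical convertase, stood at 1612 on the soft, 1954 on the intermediate and 2085 on the stiff plate in normalized counts. The soft library was the lowest, with log2 ratios of 0.28 for intermediate to soft (interval 0.18 to 0.37) and 0.37 for stiff to soft (interval 0.28 to 0.47). The intermediate and stiff libraries were close, at 0.09 (interval 0.004 to 0.18). C2, which supplies the protease part of that convertase, had 81.0, 88.6 and 71.8 normalized counts in the same order. All 3 of its intervals held 0, and the widest ran from -0.66 to 0.31 for stiff to soft, so no difference in C2 was detectable at this depth.

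The ratio of C4b depended on one correction. Across all genes the ratios followed transcript length and GC content, and the local trend at C4b, a long and GC-rich transcript of 5435 bases and 55.3% GC, was 0.29 for stiff to soft. With that trend subtracted, C4b was at 0.08 for stiff to soft and 0.11 for intermediate to soft. For stiff to intermediate it was then at -0.04. The paralog C4a had no read in the soft and intermediate libraries and 2 reads in the stiff library, and 34.8% of the stretches of 50 bases in C4b also occur in C4a.

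C3 stood at 519.8 on the soft, 737.2 on the intermediate and 1061 on the stiff plate in normalized counts, from 507, 782 and 1035 reads. Each library was higher than the softer one by more than counting error. The log2 ratio was 0.50 for intermediate to soft (interval 0.34 to 0.67), 0.53 for stiff to intermediate (interval 0.39 to 0.66) and 1.03 for stiff to soft (interval 0.88 to 1.19), a 2.04-fold difference. Among genes whose mean over libraries was 50 or more, 97.0% had a lower stiff to soft ratio than C3.

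Cfb, the gene of factor B, stood at 33.8 on the soft, 40.5 on the intermediate and 35.9 on the stiff plate in normalized counts. The largest of its ratios was 0.25 for intermediate to soft, with an interval from -0.43 to 0.96, and no difference was detectable at 33 to 43 reads. Per kilobase of transcript, Cfb stood at 10.1, 12.1 and 10.7 from soft to stiff, beside 100.8, 142.9 and 205.8 for C3. The level of Cfb carries a limit from overlapping gene models, given below.

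**Figure D1:**
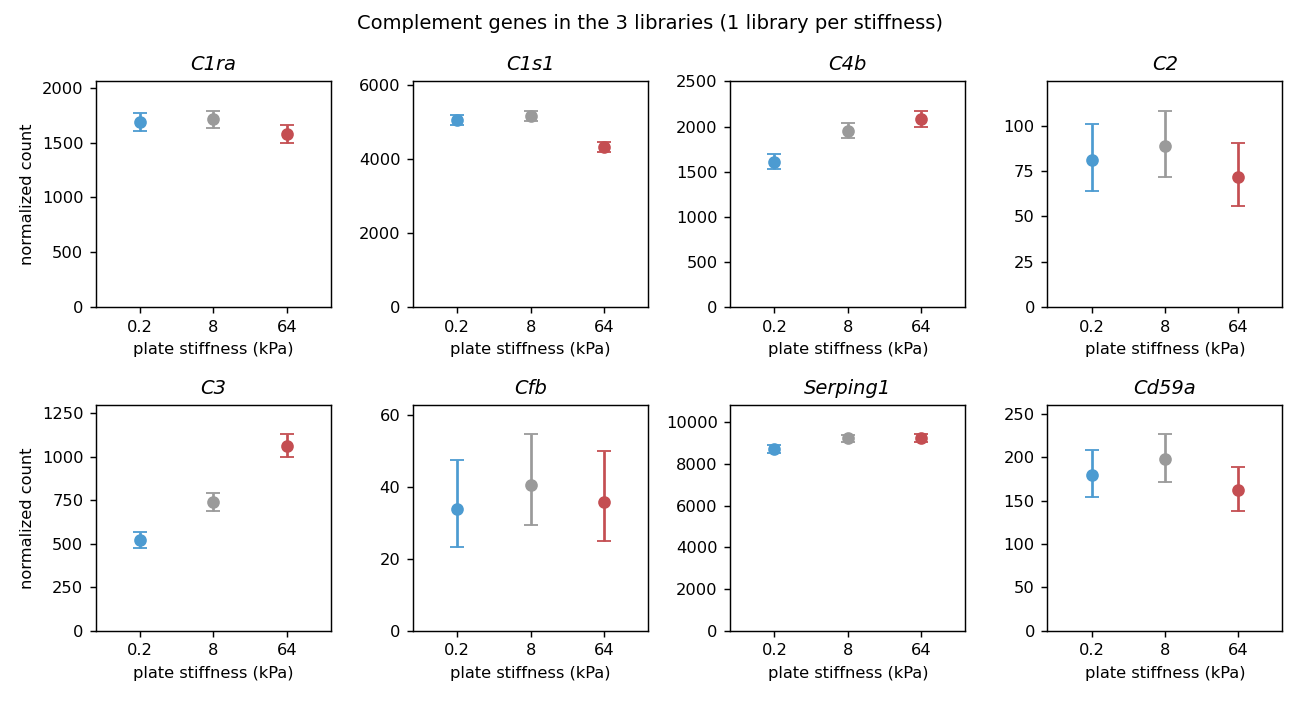
Normalized count (y axis, from 0) of each of the 8 genes against plate stiffness in kPa (x axis), with 1 library per stiffness. Points are single libraries and bars are exact 95% Poisson intervals of the reads, which hold counting error only; C3 goes from 519.8 to 1061 normalized counts and Serping1 lies between 8693 and 9225.

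Neither inhibitor reached a log2 ratio of 0.5 in any comparison. Serping1, the gene of C1 inhibitor, was the most abundant of the 8, at 8693 on the soft, 9214 on the intermediate and 9225 on the stiff plate in normalized counts. The intermediate and stiff libraries did not differ beyond counting error (log2 ratio 0.002, interval -0.04 to 0.04), and both were above soft by a log2 ratio of 0.08 and 0.09. Under total-read and upper-quartile scaling the stiff to soft value was 0.03, and under both the sign of stiff to intermediate was negative. Cd59a, which encodes the more widely expressed of the mouse CD59 proteins, had 179.4, 198.0 and 162.0 normalized counts from soft to stiff. Its intervals all held 0, the closest being -0.60 to 0.02 for stiff to intermediate. Its paralog Cd59b had 56.4, 44.3 and 37.9 normalized counts, with a stiff to soft log2 ratio of -0.56 and an interval from -1.21 to 0.06. Serping1 spans chr2:84595705-84620873 on the minus strand and Cd59a chr2:103926132-103947029 on the plus strand of GRCm39. Cd59a and Cd59b lie 4.59 kb apart, and 21.7% of the stretches of 50 bases in Cd59a occur in Cd59b.

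A gene was counted as changed when its log2 ratio reached a set size and the 3 libraries averaged 50 normalized counts or more. This minimum was met by 7 of the 8 genes and missed by Cfb, at 36.8. In stiff against soft, 1 of the 7 (C3) reached a log2 ratio of 1 in size, where 3.60% of all 11873 genes did. At 0.5, 1 of the 7 (C3) was higher, against 11.8% of all genes, and 0 were lower, against 3.77%. The median over the 8 genes was -0.01, with 4 higher and 4 lower, and the median over the 14291 genes with a mean of at least 10 was 0.0004. At 0.5 the share of 1 in 7 is near the background and is no result about the 8 genes as a group.

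In intermediate against soft, 0 of the 7 genes reached 1 in size, against 0.168% of all genes. C3 was the 1 gene higher by at least 0.5, against 3.94%, and 0 were lower by that much, against 0.657%. All 8 genes were above 0 in this comparison, with a median of 0.13 and a range from 0.02 to 0.50, and the median over all genes was 0.01. The counting intervals of C1ra, C1s1, C2, Cfb and Cd59a held 0, so for these the direction is uncertain. C1ra and C1s1, the lowest, were below 0 under upper-quartile scaling. In stiff against intermediate, 0 of the 7 reached 1 in size, against 1.25% of all genes. C3 was again the 1 gene higher by 0.5, against 5.42%, and 0 were lower by 0.5, against 3.42%. The median of the 8 was -0.15, with 3 higher and 5 lower. The comparisons share libraries and are not independent of each other.

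**Figure D2:**
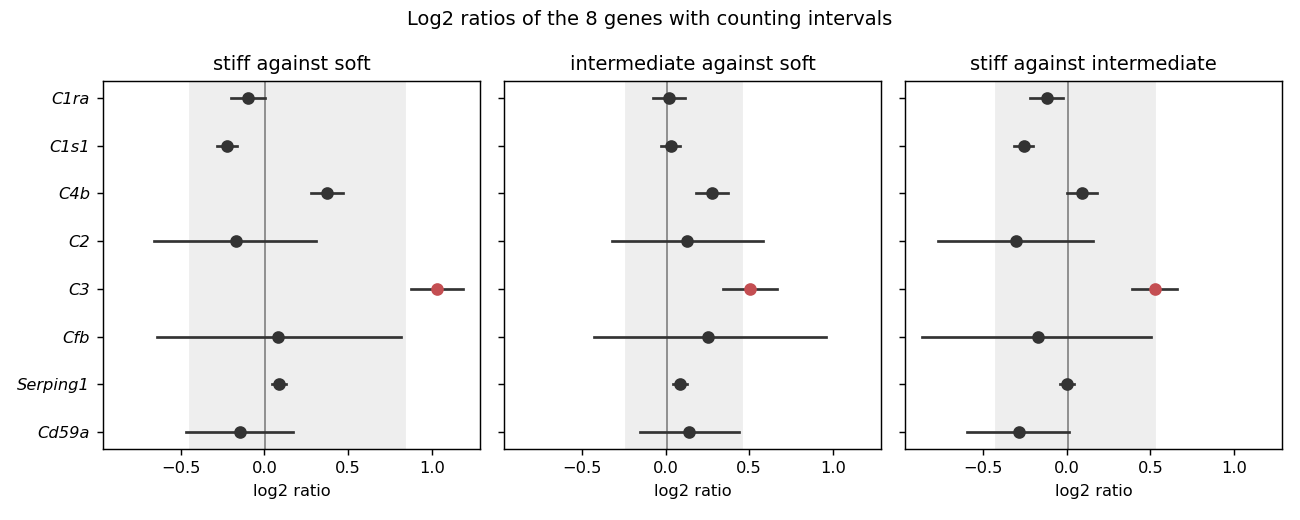
Log2 ratios (x axis) of the 8 genes (y axis) in the 3 comparisons of plates. Points are ratios, bars are 95% counting intervals, the grey band spans the 5th to the 95th percentile of all 11873 genes and the line is their median; C3, in red, lies at 1.03, 0.50 and 0.53 and is outside the band in each panel.

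The size of the C3 difference depended on the processing. Over 7 alternatives its stiff to soft ratio ran from 0.82 to 1.03 and stayed above 0.5 in all 7, but it was under 1 in 3 of them. Those were total-read scaling (0.97), upper-quartile scaling (0.97) and subtraction of the trend with length and GC content (0.82). The ratio of intermediate to soft was under 0.5 in 5 of 7, and that of stiff to intermediate in 2 of 7.

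Levels were compared between genes per kilobase of the canonical transcript. In the soft library Serping1 stood at 4740 normalized counts per kilobase and ranked 350 among 11630 genes, for which the median was 219.9. C1s1 followed at 1731, C1ra at 566.4 and C4b at 296.5. Below the median were Cd59a at 105.2, C3 at 100.8, C2 at 30.5 and Cfb at 10.1. Exons of another gene on the same strand cover 62.3% of the canonical C2 transcript and 67.1% of that of Cfb. Their levels may be affected by this overlap, which was not tested. The order of C3 and Cd59a on the soft plate was within counting error. In the intermediate library C3 was at 142.9 per kilobase and Cd59a at 116.1, and C3 reached 205.8 in the stiff library. The order of Cd59a depended on the length used: with merged exons of 6284 bases in place of the canonical 1705, it stood at 28.5 in the soft library, under C3 at 100.3. Merged exons also put Serping1 at 2862 and C2 at 18.8 in that library, with C1s1 at 1454 and C1ra at 529.6, and Serping1 was still the highest of the 8.

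The balance of partners was computed per kilobase of the canonical transcripts. Serping1 stood at 2.06, 2.14 and 2.50 times the sum of its targets C1ra and C1s1 from soft to stiff. C1s1 stood at 3.06, 3.08 and 2.80 times C1ra. C3 stood at 0.34, 0.40 and 0.54 of C4b. These ratios come from single libraries. The ratio of Serping1 to its targets also depends on the length used. With merged exons Serping1 was at 2862 per kilobase, C1s1 at 1454 and C1ra at 529.6 in the soft library.

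**Figure D3:**
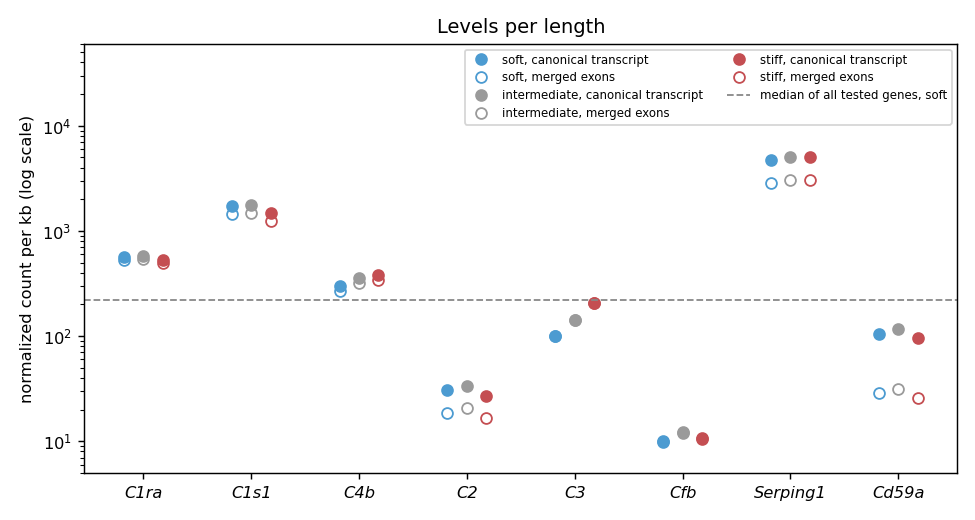
Normalized count per kilobase (y axis, log scale) of the 8 genes (x axis) in each library. Filled points use the canonical transcript, open points all merged exons, and the dashed line is the median of all tested genes in the soft library; Serping1 is the highest in every library and Cfb the lowest, between 9.89 and 12.1. Exons of another gene overlap C2 and Cfb, and an effect of this on their levels was not tested.

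C4b, Cfb and C2 lie in that order within the class III region of the major histocompatibility complex on chromosome 17. On GRCm39, C4b spans chr17:34947354-34962912, Cfb chr17:35074852-35081559 and C2 chr17:35081578-35117241, all on the minus strand. Cfb and C2 are 0.018 kb apart. The protein-coding genes Stk19, Dxo, Nelfe and Zbtb12, which lie between or beside them and had a mean of at least 50, had stiff to soft ratios from -0.15 to 0.11, while C4b was at 0.37 and at 0.08 with the trend subtracted. Skic2, a further protein-coding gene of this interval, could not be matched by name and is not included.

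The counts of Cfb and C2 carry a limit from their gene models. In GENCODE vM39 a read-through gene, Gm20547, runs over both on the same strand. Its exons cover 67.1% of the canonical Cfb transcript and 62.3% of the canonical C2 transcript. Exons of Nelfe on the opposite strand cover 48.7% of Cfb. Gm20547 is listed in the deposited table with 0 reads in every library. The annotation used for counting and the treatment of reads that fall in more than 1 gene are not given in the sources used here. Whether this lowered the values of Cfb and C2 was not tested.

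**Figure D4:**
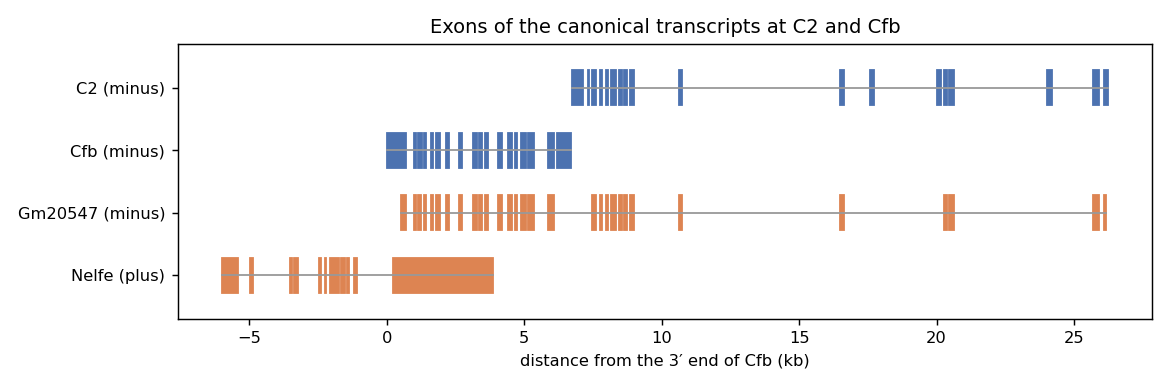
Exons (boxes) of the canonical transcripts of C2, Cfb, the read-through gene Gm20547 and Nelfe, with strand in the row names, against distance from the 3′ end of Cfb in kb. The exons of Gm20547 line up with those of both Cfb and C2.

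The rest of the pathway was taken from lists of 52 further complement genes. Of these, 13 had no read in any library and 25 averaged 10 or more normalized counts. The median stiff to soft log2 ratio of the 25 was 0.74, with 18 higher and 7 lower, beside 0.0004 for all genes. It was 0.41 with the trend of length and GC content subtracted, and 0.12 over all listed genes with at least 1 read. Of the 20 that averaged 50 or more, 12 exceeded soft by at least 0.5, against 11.8% of all genes, and 0 were lower. The median was 0.25 for intermediate to soft and 0.34 for stiff to intermediate.

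Of 7 recognition proteins and proteases that averaged 50 or more, 4 rose by at least 0.5 from soft to stiff, against 11.8% of all genes, and 0 fell by that much, against 3.77%. The C1q chains, which form the recognition part of C1, all passed a log2 ratio of 1 between the stiff and the soft plate. C1qa had 330.1, 525.1 and 929.1 normalized counts from soft to stiff, a stiff to soft log2 ratio of 1.49 (interval 1.31 to 1.68). C1qb, at 731.0, 1012 and 1883, had a ratio of 1.36, and C1qc, at 706.4, 896.5 and 1677, had 1.25. The ficolin gene Fcna, at 46.1, 65.0 and 108.7, had 1.22. The lectin pathway protease gene Masp1 had 3057, 3254 and 3631 normalized counts, a ratio of 0.25, the scavenger collectin Colec12 was at -0.14 and the C1r-like protease C1rl at -0.13. C1qb per kilobase was 0.51, 0.70 and 1.41 of C1ra from soft to stiff.

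Of the other convertase and terminal components, 3 of 10 had a mean of at least 10. Cfp, the gene of properdin, which stabilises the alternative convertase, had 681.7, 810.7 and 1547 normalized counts, a stiff to soft ratio of 1.18 (interval 1.05 to 1.32). Cfd, the protease that cleaves factor B, was at 573.1, 501.5 and 602.0, a ratio of 0.07. C8g, part of the terminal component C8, had a mean under 50 and 24, 29 and 15 reads, a ratio of -0.64 (interval -1.71 to 0.31). C6, C8a and C8b had no read in any library.

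Of the other regulators that averaged 50 or more, 2 in the fluid phase and 3 on the membrane, 1 was higher by at least 0.5, against 11.8% of all genes, and 0 were lower, against 3.77%. In the fluid phase clusterin (Clu), which binds terminal complement complexes, was at 0.15 in stiff to soft. On the membrane Cr1l, the rodent regulator Crry, stood at 2350 on the soft, 2331 on the intermediate and 2197 on the stiff plate in normalized counts, and Cd55 had 195.8, 191.4 and 213.3. Csmd1, a membrane protein with complement control domains, was that gene, at 41.0, 95.2 and 87.2, a ratio of 1.07 (interval 0.53 to 1.67), and its soft value alone was under 50.

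Complement receptors were higher on the stiff plate. Of 9 genes, 8 had a mean of at least 10, all 8 were higher in stiff than in soft, and the median was 1.04. The 6 that averaged 50 or more all differed by at least 0.5 in that direction, against 11.8% of all genes. The genes of the receptors for the fragments C3a and C5a had 1449, 2099 and 2606 normalized counts for C3ar1 and 1330, 1764 and 3116 for C5ar1, with ratios of 0.85 and 1.23. The integrin subunits of complement receptors 3 and 4 were at 0.98 for Itgam, 1.13 for Itgax and 1.10 for Itgb2.

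Macrophage markers moved with these genes. All 12 were higher in stiff than in soft, with a median of 1.26 and a range from 0.31 to 2.00, and 10 of 12 were higher by at least 0.5, against 11.8% of all genes. Lyz2 had 18362, 21482 and 39173 normalized counts and Csf1r had 1267, 1725 and 3359. The macrophage median was 0.48 for intermediate to soft and 0.77 for stiff to intermediate, while C3 was at 0.50 and 0.53. The 10 fibroblast markers had a stiff to soft median of 0.06, with 5 higher and 5 lower, and C1ra, C1s1, C4b and Serping1 lay between -0.23 and 0.37. Lists and members were not tested against each other, and the part of macrophage RNA in the difference of C3, of C1q or of the receptors was not tested.

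**Figure D5:**
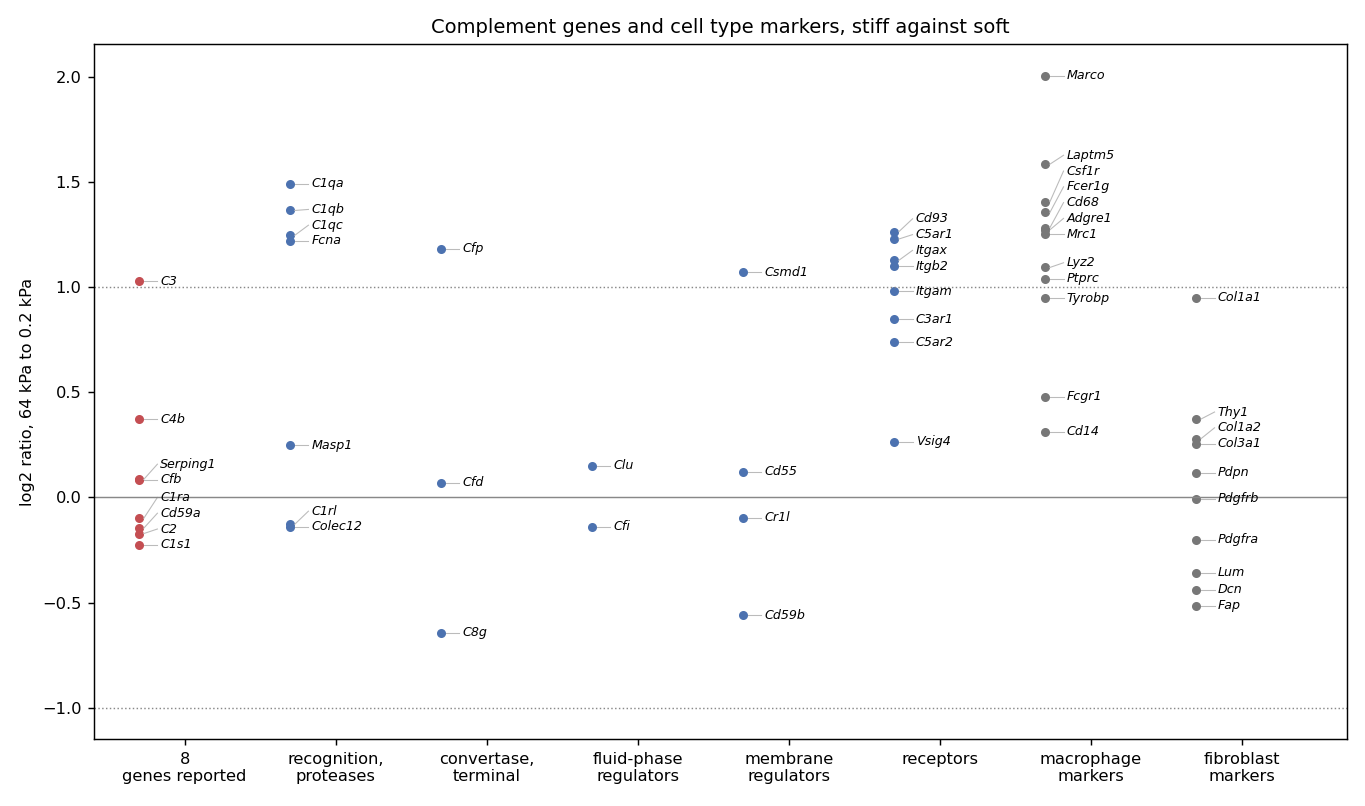
Log2 ratio of 64 kPa to 0.2 kPa (y axis) for the 8 genes, the further complement genes by role, and macrophage and fibroblast markers that averaged 10 or more normalized counts, except 1 regulator that is left out. Each point is a gene from 1 library per plate, the dotted lines mark 1 and -1, and the 8 genes run from -0.23 for C1s1 to 1.03 for C3. Macrophage markers run from 0.31 to 2.00 and fibroblast markers from -0.52 to 0.95, the value of Col1a1.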

How the data were processed

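The authors deposited 3 identical files with 1 table of 3 columns, each named after 1 library. Their signal values are gene counts that the authors scaled by library, which the deposited file names attribute to DESeq2. All values (100% in each column, within 0.001) came out as whole reads when divided by the value of 1 read. The submitters' processing notes name bcl2fastq 2.20.0, STAR 2.7.9a, featureCounts, Subread 2.0.1, DESeq2 1.34.0 and GRCm39, without roles. Libraries were made with a stranded mRNA kit, per the labels' protocols. The 8 genes, the lists, the thresholds and the motifs were chosen with earlier results of these data known. Every list gene with a mean of at least 50, and each close paralog, could be named with values, but some are not reported here.

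With 1 library per stiffness a count test has no residual degrees of freedom, so none was run. Log2 ratios used a pseudocount of 1, which understates changes of low genes. Calls needed a mean of at least 50 and list medians at least 10. A count of 0 allows up to 3 reads, or 2.83 to 3.08 normalized counts. Gene models are GENCODE vM39 on GRCm39, matched by symbol for 13878 of 14291 genes (97.1%). The length and GC trend is a robust local linear fit over 300 neighbouring genes. Counting of calls was tested on simulated data. Work ran in Python 3.11.15 with pandas 2.3.3, scipy 1.17.1 and matplotlib 3.10.9, and TMM scaling in edgeR 4.0.16 under R 4.3.3.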

Additional observations from a re-analysis of the deposited data

How the results depend on the processing

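No paired analysis was possible because each stiffness has 1 library, and for the same reason no replicate could be left out. Of 168 ratios of single genes under 7 alternatives, 161 stayed inside their counting intervals and 7 left them: C3 and C4b in stiff to soft, and C4b in both other comparisons, with the length and GC trend subtracted, and Serping1 in stiff to soft with that trend subtracted and under 2 scalings. Signs changed for Cd59a (stiff to soft) and C4b (stiff to intermediate) under the trend, for C1ra and C1s1 (intermediate to soft) under upper-quartile scaling, and for Serping1 (stiff to intermediate) under total-read and upper-quartile scaling. The scalings shift all genes by at most -0.058. Of 162 medians of sub-lists, 156 stayed inside the median counting bounds of their genes and 6 left them, all under another minimum. Depth limits C2, Cfb and Cd59a. The cause of changes was not tested, except that a lower minimum adds genes by construction.

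The number of the 8 genes past a log2 ratio of 1 in stiff against soft was 1, and 0 under total-read scaling, upper-quartile scaling and the trend. The number higher by 0.5 in intermediate against soft was 1, and 0 under a pseudocount of 10, total-read, upper-quartile and median-of-ratios scaling and the trend. In stiff against intermediate it was 1, and 0 under total-read scaling and the trend. The other counts of the 8 did not change.

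Counts over all genes are given first for stiff against soft, next for intermediate against soft and last for stiff against intermediate. At 1 in size they were 428, 20 and 148, with a minimum mean of 10 they were 822, 215 and 451, with 200 they were 238, 8 and 72, and without a filter 5827, 3646 and 3904. The second was 10 under a pseudocount of 10 and 13 under the trend. Higher by 0.5 were 1402, 468 and 644, and without a filter 4787, 3973 and 3982. Under the trend the first was 889 and the second 250. The second and the third were 864 and 1129 with a minimum of 10, and 264 and 388 with 200. Lower by 0.5 were 448, 78 and 406, with a minimum of 10 they were 985, 502 and 878, with 200 they were 217, 6 and 224, and without a filter 4276, 3547 and 4154. The second was 49 under a pseudocount of 10. The median of the further complement genes in stiff to soft was 0.74, and 0.12 over all those with at least 1 read. The median of the 8 genes per kilobase in the soft library was 200.9, and 183.1 with merged exons.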

Other observations

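Genes known to be induced beside complement in the acute phase split in both directions. Of 21 listed, 18 averaged 10 or more normalized counts, and in stiff against soft 8 were higher and 10 lower, with a median of -0.05. Pentraxin 3 (Ptx3), a soluble pattern receptor that binds C1q, stood at 9858 on the soft, 10154 on the intermediate and 17653 on the stiff plate in normalized counts, a stiff to soft log2 ratio of 0.84. Cebpb, a transcription factor of the C/EBP family, had 2748, 3411 and 4146 normalized counts, a ratio of 0.59, and Cebpd was at 0.01. Tnf was at 54.3, 66.9 and 111.8, a ratio of 1.03 (interval 0.55 to 1.54).

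Between stiff and intermediate 12 of the 18 were lower, with a median of -0.17, and 5 were lower by at least 0.5, against 3.42% of all genes. Ptx3 at 0.80 and Tnf at 0.73 were the 2 higher by at least 0.5, against 5.42% of all genes. Among the lower genes were Il6 at -0.55, Il1b at -0.67, Lif at -0.50 and Nfkbiz at -0.75. In the same comparison C3 was at 0.53.

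Vsig4, a macrophage receptor for C3b chosen here after its values were seen, had 19 reads on the soft, 2 on the intermediate and 23 on the stiff plate. Its log2 ratio of intermediate to soft was -2.83 (interval -6.52 to -1.32), while the other receptors with a mean of at least 50 were between 0.36 and 0.63.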
